A study of Mus musculus with 23 samples.

Results

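The genes described here are 37 antioxidant, glutathione and pentose phosphate genes, of 13743 genes tested on the arrays. They are a list of gene names, and all 37 had a probe that entered the tests. The study measured RNA on 23 one-colour Agilent arrays of mouse samples. All the mice lacked Cd3e, part of the CD3 complex of T cells, and were of a C57BL/6 x 129 background, with no age given. The groups were 9 B cell lymphoma lines of Atm knockout, Cd3e knockout mice (10 arrays, since line 8 was measured again and averaged), 6 tumour-free spleens of Atm knockout, Cd3e knockout mice, all female, and 7 spleens of Atm wild-type, Cd3e knockout mice, of which 4 were male and 3 female. The lines came from spleens with tumours and grew in suspension in RPMI1640 with serum, 2-ME (a reducing agent) and glutamine, whereas the spleens were whole tissue. Cell type, tumour state and culture therefore cannot be told apart in any comparison of lines with spleens. Each line, and each animal, gave 1 value.

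Levels are log2 of the spot signal minus the 75th percentile of the array, so a level of 0 is the brightness at that percentile. They are comparable between samples for 1 probe and not between probes. On the arrays of the lines 54.9% to 62.3% of spots were well above background, and on those of the spleens 61.7% to 67.7%. All 14 B cell markers were well above background in every line. The Atm probe lay at -0.67 to 0.00 in wild-type spleens, at -2.69 to -2.07 in knockout spleens and at -4.38 to -2.77 in the lines. The Cd3e probe lay at -3.30 to -1.22 in the lines, at -4.65 to -3.86 in knockout spleens and at -4.63 to -3.96 in wild-type spleens. It was well above background in every sample. The sources do not give which part of Atm or Cd3e was deleted, so these levels do not show the genotype. Summed neutrophil markers (log2 of their added levels, 13 genes) lay between -4.13 and 0.58 in the lines, between 7.92 and 9.63 in knockout spleens and between 7.71 and 9.98 in wild-type ones. Line 3 was highest among the lines and wild-type spleen 2 highest of all. Summed erythroid markers (14 genes) lay between 1.05 and 4.98 in the lines, between 8.04 and 10.18 in knockout spleens and between 8.50 and 9.95 in wild-type ones.

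Cells remove peroxide with glutathione and thioredoxin, small thiol carriers that are recharged with electrons from NADPH, much of which comes from the pentose phosphate pathway. The transcription factor NRF2, encoded by Nfe2l2, switches on many genes of these systems by binding an antioxidant response element (ARE). KEAP1 holds NRF2 for degradation until oxidants modify it, so NRF2 activity is set largely at the protein level and its transcript is no measure of it. ATM is best known as the kinase that signals DNA breaks, and it is also activated directly by oxidation. Lymphoid cells that lack it are known for raised oxidant levels, which is why these genes are of interest in Atm knockout tissue.

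The sequences of interest are the upstream ARE cores, since NRF2 acts through them. RefSeq promoters (250 bases before to 50 after the gene start, GRCm38.p6) were at hand for 31 of 36 of the genes. The other 5, Hmox1, Gclc, Gsr, Gsta4 and Prdx6, had no entry, and bases outside this window were not searched. The ARE core TGACNNNGC, searched on both strands, was found in 8 of these 31, against 14.0% of all 27025 genes with a promoter and 12.4% of all 32851 promoters. In 6 genes the match lay before the start, and the stretches around it are given 5′ to 3′ on the strand of the gene, with the match in capitals.
Nfe2l2 (chr2:75704863-75704913, minus strand, match from -240): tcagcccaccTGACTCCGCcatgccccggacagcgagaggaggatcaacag
Gclm (chr3:122245391-122245463, plus strand, match from -134): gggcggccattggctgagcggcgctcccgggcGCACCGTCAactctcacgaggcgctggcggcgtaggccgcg
Mgst1 (chr6:138140439-138140511, plus strand, match from -56): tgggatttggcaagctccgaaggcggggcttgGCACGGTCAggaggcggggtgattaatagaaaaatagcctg
Txnrd1 (chr10:82859082-82859154, plus strand, match from -92): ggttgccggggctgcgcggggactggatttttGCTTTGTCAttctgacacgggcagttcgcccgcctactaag
Prdx1 (chr4:116685434-116685506, plus strand, match from -133): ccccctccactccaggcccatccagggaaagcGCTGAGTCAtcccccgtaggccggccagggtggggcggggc
Sod1 (chr16:90220674-90220746, plus strand, match from -56): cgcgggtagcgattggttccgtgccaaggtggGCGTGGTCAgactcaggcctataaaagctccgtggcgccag
Srxn1 and Pgd had their match just after the start. The AP-1 site TGACTCA was found in 5 of the 31 genes (Glrx, Gstp1, Mgst2, Prdx1 and Srxn1), against 5.9% of all genes, and in Prdx1 1 of its 2 matches overlaps the ARE core. These matches are letters in a window and were not tested for binding. The 6 genes with an upstream match did not share a direction in the lines: Prdx1, Txnrd1 and Sod1 rose, Nfe2l2 and Mgst1 fell, and Gclm did not pass the test against either group of spleens.

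Lines were compared with the knockout spleens, which share their Atm label, and with the wild-type spleens that the study names as normal tissue. Against knockout spleens 15 of the 37 genes rose and 11 fell. Of all genes tested, 41.5% rose and 28.9% fell, so these shares lie near the background and do not set the genes apart as a list. The median difference was -0.04 for the 37 genes and 0.18 for all genes. Lines and spleens did not overlap for 13 rising and 6 falling genes (35.1% and 16.2% of the 37), where the background was 24.1% and 16.8%. Against wild-type spleens 16 rose and 9 fell, with 40.4% and 30.9% of all genes, and a median of 0.16 beside 0.14 for all genes. Here 13 and 7 genes did not overlap, beside a background of 23.9% and 17.9%. Both comparisons use the same lines, so that they look alike is no further evidence. The plot of differences by role gives each gene. Centring arrays on the median raises the median difference of all genes to 0.83 and 0.78, and signs that turned with it are given beside the genes.

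**Figure D1:**
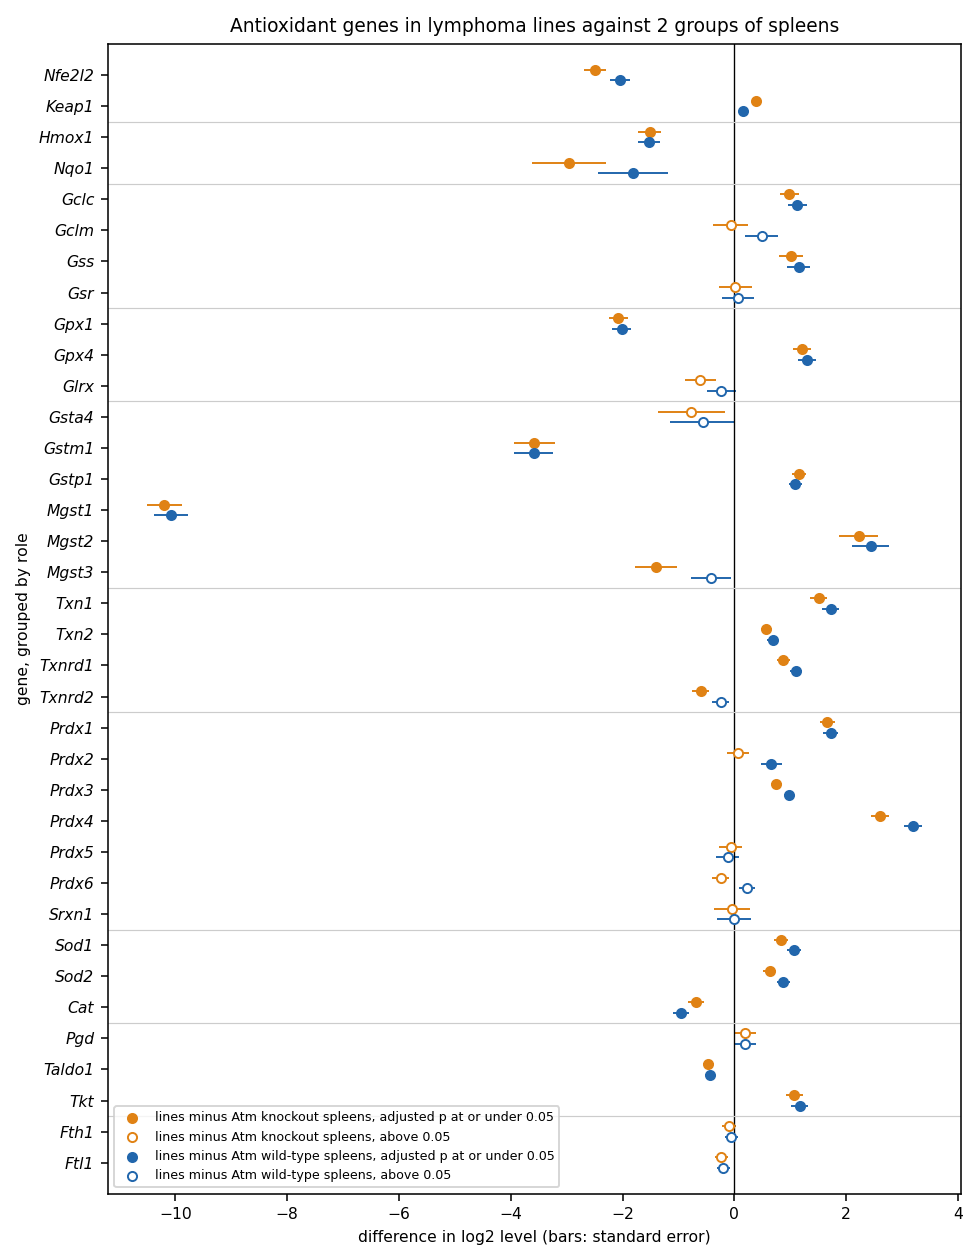
Difference in log2 level between the 9 lymphoma lines and the 6 Atm knockout spleens (orange) or the 7 Atm wild-type spleens (blue) for 36 of the genes, grouped by role, with standard errors from limma; filled points have an adjusted p at or under 0.05. Mgst1 lies farthest to the left at -10.20 and -10.08, where the lines are below background, and Prdx4 farthest to the right at 2.61 and 3.20.

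The NRF2 factor and its sensor moved apart. Nfe2l2 ranged from -0.01 to 1.60 in the lines (median 0.62), from 3.00 to 3.21 in knockout spleens (median 3.12) and from 2.53 to 2.93 in wild-type spleens (median 2.62). All 9 lines lay below all 13 spleens, with line 4 highest and line 6 lowest. The transcript fell 5.63-fold against knockout spleens (log2 difference -2.49 ± 0.19 SE, limma adjusted p = 1.96e-10) and 4.13-fold against wild-type spleens (-2.05 ± 0.18, adjusted p = 1.89e-09). A second probe gave -2.66 and -2.11. Keap1 ranged from 2.95 to 3.26 in the lines (median 3.13), from 2.61 to 2.87 in knockout spleens (median 2.67) and from 2.77 to 3.06 in wild-type spleens (median 2.95). The lines lay above the knockout spleens and overlapped the wild-type spleens. The rise against knockout spleens was 1.31-fold (0.39 ± 0.07, adjusted p = 4.65e-05), and it was no longer called with quantile normalisation (0.08, adjusted p = 0.293) or with normexp background correction (adjusted p = 0.151). Against wild-type spleens it was 0.16 ± 0.07 (adjusted p = 0.0431), was lost under many settings and turned to -0.15 with quantile normalisation.

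The classical targets that handle haem and quinones fell. Hmox1 encodes haem oxygenase, which degrades haem and is abundant in the macrophages of the spleen. It ranged from 2.49 to 3.73 in the lines (median 2.95), from 4.11 to 5.03 in knockout spleens (median 4.53) and from 4.19 to 5.19 in wild-type spleens (median 4.41). No line reached any spleen, and the transcript fell by 1.51 ± 0.20 and 1.52 ± 0.20 on the log2 scale (adjusted p = 9.95e-07 and 4.12e-07). Macrophage markers fell too, with a summed level of 4.66 to 6.76 in the lines and 7.37 to 8.28 in the spleens, and 16 of 17 of them were lower in each comparison. Their part in the fall of Hmox1 was not tested. In bulk RNA, fewer cells of a type and less RNA per cell cannot be told apart. Nqo1, a quinone reductase often used as a readout of NRF2, ranged from -6.82 to -0.88 in the lines (median -4.88), from -3.18 to -0.97 in knockout spleens (median -1.63) and from -3.85 to -1.85 in wild-type spleens (median -2.95). It was well above background in 6 of 9 lines, and line 9 alone lay above every spleen. The fitted difference was -2.96 ± 0.66 against knockout spleens (adjusted p = 0.000415) and -1.82 ± 0.63 against wild-type spleens (adjusted p = 0.0136). The second call was lost with median centring (adjusted p = 0.0868), quantile normalisation (0.0522) and normexp (0.0646).

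Of the 4 genes of glutathione synthesis and recycling, Gclc and Gss rose while Gclm and Gsr did not pass the test. Gclc, the catalytic subunit of glutamate-cysteine ligase and thus the enzyme of the first step, ranged from 2.10 to 3.38 in the lines (median 2.37) and from 1.21 to 1.87 in all spleens. The groups did not overlap, and it rose 1.97-fold against knockout spleens (0.98 ± 0.17, adjusted p = 2.6e-05) and 2.19-fold against wild-type spleens (1.13 ± 0.16, adjusted p = 2.13e-06). Gclm, the modifier subunit of the same ligase, differed by -0.07 ± 0.31 (adjusted p = 0.859) and 0.49 ± 0.30 (adjusted p = 0.149). The first turned to 0.59 with median centring, and the second was called with median centring (1.13, adjusted p = 0.00214) and quantile normalisation (0.90, adjusted p = 0.0134). It varied from -4.37 to -2.11 among the spleens and from -3.97 to -2.37 among the lines. Gss, which completes glutathione, ranged from 0.35 to 2.14 in the lines, with lines 4 and 5 highest, and from -0.24 to 0.40 in the spleens. It rose by 1.01 ± 0.21 (adjusted p = 0.000241) and 1.15 ± 0.20 (adjusted p = 3.15e-05). Gsr, which recycles oxidised glutathione, differed by 0.02 ± 0.30 and 0.07 ± 0.28, and was called with median centring (0.67 and 0.71, adjusted p = 0.0397 and 0.0247).

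The glutathione peroxidases moved in opposite directions. Gpx1, the abundant cytosolic enzyme, ranged from 4.25 to 5.20 in the lines (median 4.77), from 6.27 to 7.34 in knockout spleens (median 6.86) and from 6.41 to 7.28 in wild-type spleens (median 6.70). It fell 4.22-fold and 4.05-fold (-2.08 ± 0.17, adjusted p = 7e-10, and -2.02 ± 0.17, adjusted p = 4.44e-10), with no overlap. Gpx1 is also abundant in red cells, and erythroid markers moved with it: 13 of 14 fell in each comparison, with 5 to 9 of the 14 well above background in a line and all 14 in every spleen. Their part in the fall of Gpx1 was not tested. Gpx4, which reduces lipid peroxides in membranes and guards cells against ferroptosis, ranged from 4.84 to 6.17 in the lines (median 5.45) and from 3.97 to 4.57 in the spleens. It rose 2.30-fold and 2.46-fold (1.20 ± 0.16, adjusted p = 8.81e-07, and 1.30 ± 0.15, adjusted p = 1.28e-07). Glrx, which removes glutathione from proteins, differed by -0.61 ± 0.27 from knockout spleens (adjusted p = 0.0513) and by -0.23 ± 0.26 from wild-type spleens. The first was called lower under 8 alternatives (such as quantile normalisation, -0.83, adjusted p = 0.0127), and both signs turned with median centring (0.05 and 0.41).

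Among the 6 glutathione transferases, which attach glutathione to electrophiles, 2 rose and 2 fell in both comparisons. Gstm1 ranged from -1.51 to 1.28 in the lines (median -0.40), with lines 1 and 2 highest, from 3.13 to 3.64 in knockout spleens and from 3.08 to 4.18 in wild-type spleens. It was 12.0-fold lower against each (-3.58 ± 0.37 and -3.59 ± 0.35, adjusted p = 1.72e-08 and 6.72e-09), though the close relatives of Gstm1 could share signal with its probe. Mgst1, a membrane-bound transferase, was not well above background in any of the 9 lines, and was at 1.54 to 3.02 in knockout spleens (median 2.16) and 1.44 to 3.70 in wild-type spleens (median 1.92). Each line was taken at no less than the lowest signal that was well above background on its array. By this bound, Mgst1 in the lines was at least 346-fold lower than in knockout spleens and at least 318-fold lower than in wild-type spleens. The bound holds for the main processing only: over the alternatives the fitted differences were -10.39 to -5.35 and -10.27 to -5.07. Neutrophil markers were lower too, 13 of 13 in each comparison, with 1 to 6 of them well above background in a line. Their part in the levels of Gstm1 and Mgst1 was not tested.

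Mgst2, a relative that also makes leukotriene C4, ranged from 3.63 to 6.62 in the lines (median 5.98) against 3.24 to 4.09 and 2.56 to 4.19 in the spleens. Line 9 was the lowest and the other lines lay at 5.40 or above, so the overlap with the spleens came from line 9. Mgst2 rose 4.69-fold and 5.43-fold (2.23 ± 0.35, adjusted p = 7.13e-06, and 2.44 ± 0.33, adjusted p = 1.01e-06). Gstp1 ranged from 6.42 to 7.18 in the lines and from 5.52 to 5.89 in the spleens, and rose by 1.16 ± 0.12 and 1.09 ± 0.12 (adjusted p = 2.7e-08 and 2.65e-08). Mgst3 fell against knockout spleens (-1.40 ± 0.37, adjusted p = 0.00212), a call lost with median centring (adjusted p = 0.0665), and differed by -0.41 ± 0.36 from wild-type spleens (0.23 with median centring). Gsta4, which acts on lipid aldehydes, was well above background in 3 of 9 lines and passed neither test, and the sign against wild-type spleens turned with median centring (0.07).

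**Figure D2:**
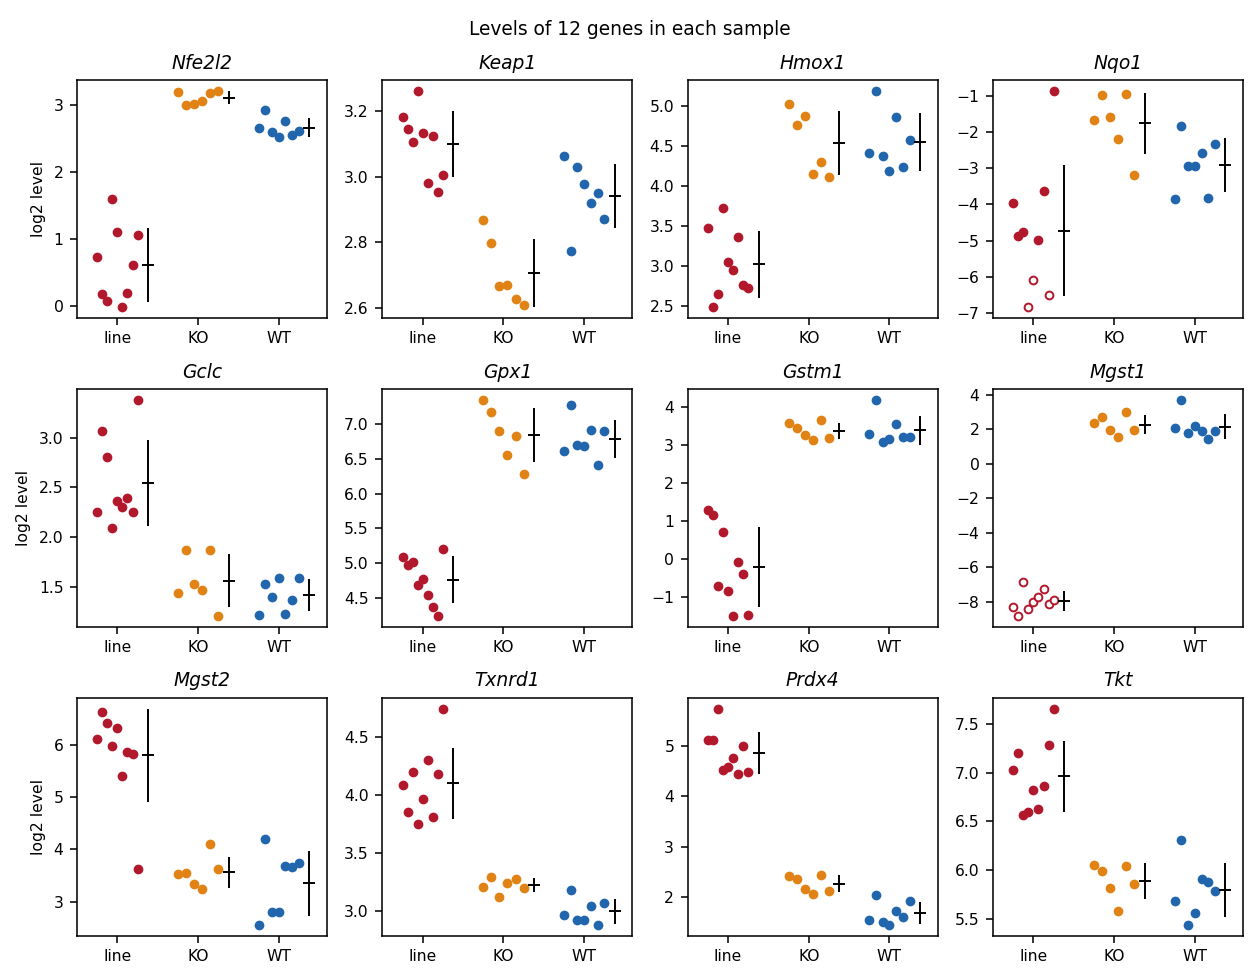
Log2 level of 12 genes in each lymphoma line, Atm knockout spleen (KO) and Atm wild-type spleen (WT), with the mean and SD of each group beside the points; open points were not well above background. Each panel has its own axis. Nfe2l2, Hmox1, Gpx1, Gstm1 and Mgst1 show all lines below all spleens, Gclc, Txnrd1, Prdx4 and Tkt all lines above, and line 9 stands apart for Nqo1 and Mgst2.

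The cytosolic thioredoxin system rose. Txn1, the main cytosolic thioredoxin, ranged from 4.46 to 5.30 in the lines (median 4.85), from 2.97 to 3.75 in knockout spleens and from 2.75 to 3.82 in wild-type spleens. It rose 2.84-fold and 3.30-fold (1.51 ± 0.16, adjusted p = 2.93e-08, and 1.72 ± 0.15, adjusted p = 1.45e-09) with no overlap. Txnrd1, the reductase that recharges it, ranged from 3.76 to 4.75 in the lines (median 4.09), from 3.13 to 3.29 in knockout spleens and from 2.88 to 3.19 in wild-type spleens. The lines again lay above every spleen, line 9 being highest, and Txnrd1 rose 1.84-fold and 2.15-fold (SE on the log2 scale 0.12 and 0.11, adjusted p = 7.91e-07 and 1.12e-08). The mitochondrial pair did not move together. Txn2 rose by 0.57 ± 0.10 and 0.68 ± 0.10 (adjusted p = 2.77e-05 and 1.38e-06). Txnrd2 fell by 0.60 ± 0.16 against knockout spleens (adjusted p = 0.00184) and differed by -0.24 ± 0.15 from wild-type spleens. Both signs turned with median centring (0.05 and 0.40), and against wild-type spleens Txnrd2 was then called higher (adjusted p = 0.0404).

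Peroxiredoxins reduce peroxide with electrons from thioredoxin, and sulfiredoxin repairs them when they are over-oxidised. Prdx4, the member of the endoplasmic reticulum, ranged from 4.46 to 5.74 in the lines (median 4.77), from 2.06 to 2.44 in knockout spleens (median 2.26) and from 1.44 to 2.03 in wild-type spleens (median 1.59). Line 3 was highest, and the 3 groups did not overlap. Prdx4 rose 6.11-fold against knockout spleens (2.61 ± 0.16, adjusted p = 6.52e-12) and 9.16-fold against wild-type spleens (3.20 ± 0.16, adjusted p = 7.52e-14), and under the alternatives the differences were 2.23 to 3.27 and 2.85 to 3.84. Prdx1, a cytosolic member, ranged from 4.75 to 5.79 in the lines and from 3.25 to 3.75 in the spleens and rose by 1.67 ± 0.14 and 1.72 ± 0.13 (adjusted p = 6.12e-10 and 1.37e-10). Prdx3, which is mitochondrial, rose by 0.75 ± 0.10 and 0.98 ± 0.09 (adjusted p = 7.02e-07 and 5.11e-09).

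Prdx2, a cytosolic member known from red cells, rose against wild-type spleens (0.66 ± 0.19, adjusted p = 0.00394), a call lost with quantile normalisation (adjusted p = 0.517), and differed by 0.07 ± 0.20 from knockout spleens (0.72, adjusted p = 0.00407, with median centring). Prdx5 differed by -0.06 and -0.12, and with median centring it was called higher (0.59 and 0.52). With quantile normalisation Prdx5 was called lower against wild-type spleens (-0.48, adjusted p = 0.0431). Srxn1, the sulfiredoxin, differed by -0.04 ± 0.32 and 0.00 ± 0.30, with levels of -2.25 to 0.14 in the lines and -1.13 to -0.39 in the spleens, and both signs turned with median centring (0.61 and 0.64). The probes of Prdx6 did not give 1 answer. The brightest differed by -0.24 ± 0.15 and 0.23 ± 0.15 and passed neither test, a second fell by 1.54 and 1.29 on the log2 scale, and another differed by -0.14 and rose by 0.49. No direction is therefore given for Prdx6.

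Superoxide dismutases rose and catalase fell. Sod1, the cytosolic enzyme, ranged from 7.18 to 8.16 in the lines and from 6.25 to 6.84 in the spleens, with lines 4 and 5 highest. It rose by 0.83 ± 0.13 and 1.07 ± 0.12 (adjusted p = 5.58e-06 and 7.28e-08). Sod2, the mitochondrial enzyme and a known NF-kB target, ranged from 4.87 to 5.95 in the lines and from 4.22 to 4.66 in the spleens. It rose by 0.63 ± 0.12 and 0.87 ± 0.12 (adjusted p = 8.17e-05 and 6.28e-07), and with quantile normalisation the first call was lost (0.13, adjusted p = 0.317). Cat ranged from 0.81 to 1.65 in the lines, from 1.59 to 2.17 in knockout spleens and from 1.86 to 2.40 in wild-type spleens. It fell by 0.69 ± 0.14 and 0.96 ± 0.14 (adjusted p = 0.000181 and 1.66e-06), and with median centring the difference from knockout spleens was -0.03 (adjusted p = 0.84).

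In the pentose phosphate pathway Tkt rose and Taldo1 fell. Tkt, the transketolase of the non-oxidative branch, ranged from 6.56 to 7.66 in the lines (median 6.86) and from 5.44 to 6.30 in the spleens and rose 2.11-fold and 2.25-fold (1.07 ± 0.16, adjusted p = 3.39e-06, and 1.17 ± 0.15, adjusted p = 4.9e-07). A second Tkt probe rose by 1.03 and 0.82. Taldo1, the transaldolase, fell by 0.47 ± 0.10 and 0.44 ± 0.09 (adjusted p = 0.000172 and 0.000204) and turned to 0.19 and 0.21 with median centring. Pgd, an NADPH-producing enzyme of the pathway, differed by 0.19 ± 0.19 and 0.20 ± 0.18. With median centring it was called higher (0.85 and 0.84), and without wild-type spleen 2 the second difference was 0.36 (adjusted p = 0.0429). The iron-storage ferritin chains Fth1 and Ftl1 also passed neither test, with differences of -0.10 and -0.05 for Fth1 and -0.23 and -0.20 for Ftl1 (1 wild-type spleen left out, its spot being marked as an outlier), all of which turned sign with median centring. With median centring both genes were called higher against each group of spleens. With quantile normalisation both were called lower (-0.38 and -0.35 for Fth1, -0.73 and -0.69 for Ftl1).

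Of the genes called against knockout spleens, 19 of 26 were called in the same direction under all 26 alternatives run, and against wild-type spleens 20 of 25 under all 27. Of the genes not called, 3 of 11 and 4 of 12 stayed uncalled under all of them. Within the 5 slides that held lines and spleens, all but 1 of the genes called in both comparisons kept its sign on 5 of 5 slides. Where lines and spleens did not overlap, this sign was fixed in advance and is no further evidence. The share of all called genes that kept their sign was not computed. Lines 7, 8 and 9 were on slide 1 with no spleen and did not enter this check. For Nfe2l2 the within-slide differences were -3.19 to -1.86 and -2.75 to -1.21, and for Prdx4 2.33 to 3.69 and 2.96 to 4.04.

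Other genes of the same systems, from lists of non-members, were counted in the same fits. Of 15 further NRF2 regulators and targets tested, 5 rose and 8 fell against knockout spleens (median -0.48). Abcc4, an efflux transporter, rose by 2.08 ± 0.19 and Sqstm1, an autophagy receptor that binds KEAP1, by 0.92 ± 0.16, while the carbonyl reductase Cbr3 (well above background in 5 of 9 lines) differed by -6.99 as fitted and Maff, a small partner of NRF2, by -3.72 ± 0.26. Where fewer than 9 lines are given, the others were not well above background and a fitted difference has no exact size. Bach1, a repressor at the same elements, fell by 0.67 ± 0.21 (adjusted p = 0.00766). Slc7a11, the cystine carrier, was not tested, as none of its 3 probes was well above background in any line. Of 27 other glutathione genes 13 rose and 10 fell (median 0.28). Cth, which makes cysteine within the cell, rose from a mean of -5.61 to 2.31 (7.92 ± 0.22, adjusted p = 8.94e-18). The knockout spleen mean of -5.61 was close to the lowest well-above-background signal, which averaged -6.17 on the arrays of the lines. The size of this rise is therefore uncertain. Ggt7, of the gamma-glutamyltransferase family, rose by 4.58 ± 0.38. Ggt5 of the same family was not well above background in any line and, by the bound used for Mgst1, at least 46.5-fold lower. Gpx7 (2 of 9 lines) differed by -4.41 as fitted.

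Of 26 other thioredoxin, methionine sulfoxide and selenoprotein genes 13 rose and 6 fell (median 0.39). Txnl1, a thioredoxin-like protein, rose by 1.74 ± 0.19 and Selenos by 1.38 ± 0.14, while the secreted selenium carrier Selenop differed by -6.21 ± 0.78 and Selenon (2 of 9 lines) by -6.95 as fitted. Txnip, the inhibitor of thioredoxin, differed by -0.32 ± 0.23 from knockout spleens (adjusted p = 0.218) and fell by 0.91 ± 0.22 against wild-type spleens. Of 17 other pentose phosphate and NADPH genes 7 rose and 3 fell (median 0.22). The mitochondrial folate enzymes Mthfd2 and Mthfd1l rose by 3.53 ± 0.19 and 1.37 ± 0.12, while H6pd, an NADPH-producing enzyme of the endoplasmic reticulum, fell by 4.41 ± 0.23 and Aldh1l1 (4 of 9 lines) differed by -3.09 as fitted. Of 8 oxidant producers 0 rose (0 also at an unadjusted limma p under 0.05) and 7 fell (median -0.74), among them Cybb, the catalytic subunit of the phagocyte oxidase (-0.82 ± 0.19), Mpo, the neutrophil peroxidase (-9.37 ± 0.49), and Xdh. Xdh was not well above background in any line and, by the bound used for Mgst1, at least 87.9-fold lower. Mpo is also in the neutrophil list. Of 17 genes of iron and haem handling 8 rose and 6 fell (median -0.41). Aifm2, a suppressor of ferroptosis, rose by 1.34 ± 0.22 and the haem transporter Slc48a1 by 0.94 ± 0.15, the iron exporter Slc40a1 (1 of 9 lines) differed by -10.72 and Hfe (2 of 9 lines) by -7.41 as fitted, and the transferrin receptor Tfrc by -0.43 ± 0.24 (adjusted p = 0.116). Against wild-type spleens the counts of higher and lower genes were 5 and 7, 14 and 9, 14 and 7, 9 and 5, 0 and 8, and 7 and 6 in the order of these lists.

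The lines differed among themselves in a few of the genes. The SD over the 9 lines had a median of 0.35 for the 37 genes and 0.44 for all genes tested. Nqo1 had the widest spread (SD 1.80, wider than 96.4% of tested genes), followed by Gsta4 (1.73), Gstm1 (1.06), Srxn1 (0.93) and Mgst2 (0.89), of which Nqo1 and Gsta4 were below background in some lines. Keap1 had the narrowest (SD 0.10), and 0.175% of tested genes had a lower one. Line 9 held the highest level of Nqo1, Gclc, Gclm, Gpx1, Txn1, Txn2, Txnrd1, Prdx1, Srxn1 and Tkt and the lowest of Gsr, Gpx4, Mgst2, Prdx5 and Fth1, as the line-by-line plot shows. How often line 9 was the highest or lowest line over all genes tested was not computed, so this is not shown to be particular to these genes. Proliferation markers were also highest in line 9, at 8.82 against 7.31 in line 2, the lowest. Among the lines it was also highest in summed macrophage and monocyte markers (6.76) and lowest in summed erythroid markers (1.05). Line 9 was on slide 1 with lines 7 and 8 and no spleen. Its array had the lowest share of spots well above background (54.9%). The part of these in the levels of line 9 was not tested. Lines 4 and 5 held the lowest Srxn1, -2.25 and -2.08, and the highest Gss, 1.96 and 2.14. Both were on slide 5, as were knockout spleen 6 and wild-type spleen 6, the spleens highest in their groups for Gss (0.40 and 0.18). The part of the slide in these levels was not tested.

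**Figure D3:**
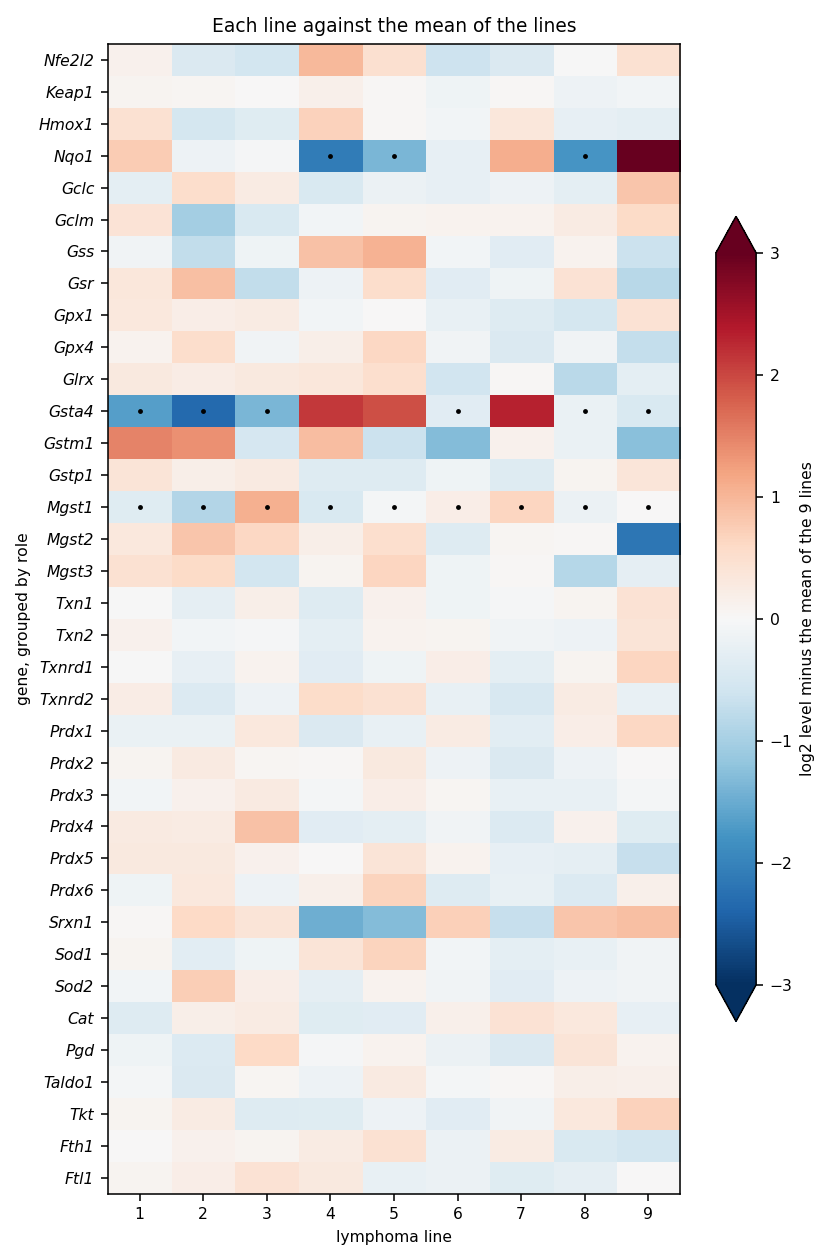
Log2 level of 36 of the genes in each lymphoma line minus the mean of the 9 lines, red above and blue below the mean, with the colour scale ending at -3 and 3; dots mark values that were not well above background. Line 9 is above the colour scale for Nqo1, at a level of -0.88 beside a median of -4.88, and lowest for Mgst2 at 3.63.

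NRF2 targets that are often read as a set were compared pair by pair over the 9 lines. Of the 21 pairs of Nqo1, Hmox1, Gclc, Gclm, Gsr, Txnrd1 and Srxn1, 9 had a positive Pearson r and 0 passed after Benjamini-Hochberg adjustment (exact permutation test, two-sided, smallest adjusted p = 0.185), with 4 at an unadjusted exact p under 0.05. The largest were Hmox1 with Srxn1 (r = -0.74, rho = -0.68, exact p = 0.0246 and 0.0503, r = -0.69 without the 2 lines farthest from the median of Hmox1) and Nqo1 with Gclc (r = 0.72, rho = 0.72, exact p = 0.03 and 0.0369). The latter rests on the outlying lines, since r was 0.13 without the 2 farthest. Txnrd1 with Srxn1 had r = 0.69 and rho = 0.80 (exact p = 0.0352 and 0.0138, r = 0.57 without the 2 farthest), and Hmox1 with Gclc had r = -0.71 and rho = -0.72 (exact p = 0.0303 and 0.0369, r = -0.60). With 9 lines and each slide holding few of them, these relations were not computed within slides.

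The Atm genotype was compared in the 13 tumour-free spleens, with sex as a term because every knockout spleen was female. The difference is therefore set by the 6 knockout and the 3 female wild-type spleens, while the 4 males add only to the estimate of the spread. Of the 37 genes 1 rose, Nfe2l2, and 0 fell, beside 1.66% and 2.16% of all genes tested. At an unadjusted p under 0.05 (limma) 4 were higher and 1, Keap1, lower. The share of all genes at this unadjusted p was not computed, so these counts have no background beside them. The median difference was 0.09 for the 37 genes and -0.05 for all genes. Cell type markers moved with the genotype as well: 5 of 15 T and NK cell markers were lower (median -0.49, summed levels 5.89 to 6.57 in knockout and 6.40 to 6.84 in wild-type spleens). Of 11 proliferation markers 1 was higher (median 0.71, summed levels 6.15 to 6.97 and 5.71 to 6.65), and of 11 stromal markers 1 was higher and 1 lower. Erythroid and neutrophil markers had medians of 1.13 and 0.90 with 0 called (limma, with 2 and 0 at an unadjusted p under 0.05). Their part in the differences of the 37 genes was not tested. Of all genes tested, 1.26% were called higher without overlap and 0.953% lower without overlap. Nfe2l2 lay at 3.00 to 3.21 in the 6 knockout spleens and 2.53 to 2.93 in the 7 wild-type spleens, so the groups did not overlap. It rose 1.38-fold (0.46 ± 0.10, limma adjusted p = 0.0284), and its second probe rose by 0.66 ± 0.13 (adjusted p = 0.0181). Within the 5 slides with both genotypes the difference was 0.08 to 0.65. That it was above 0 on each follows from the lack of overlap and is no further evidence. Over the alternatives the difference was 0.42 to 0.71, the highest with normexp, and leaving out a male could not move it. The call did not hold with median centring (adjusted p = 0.0599), with slide as a fixed term (0.0951), in 1 fit of all 3 groups (0.342), with normexp (0.408) or without knockout spleen 1 (0.0566) or wild-type spleen 5 (0.0597), 6 (0.138) or 7 (0.0983).

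**Figure D4:**
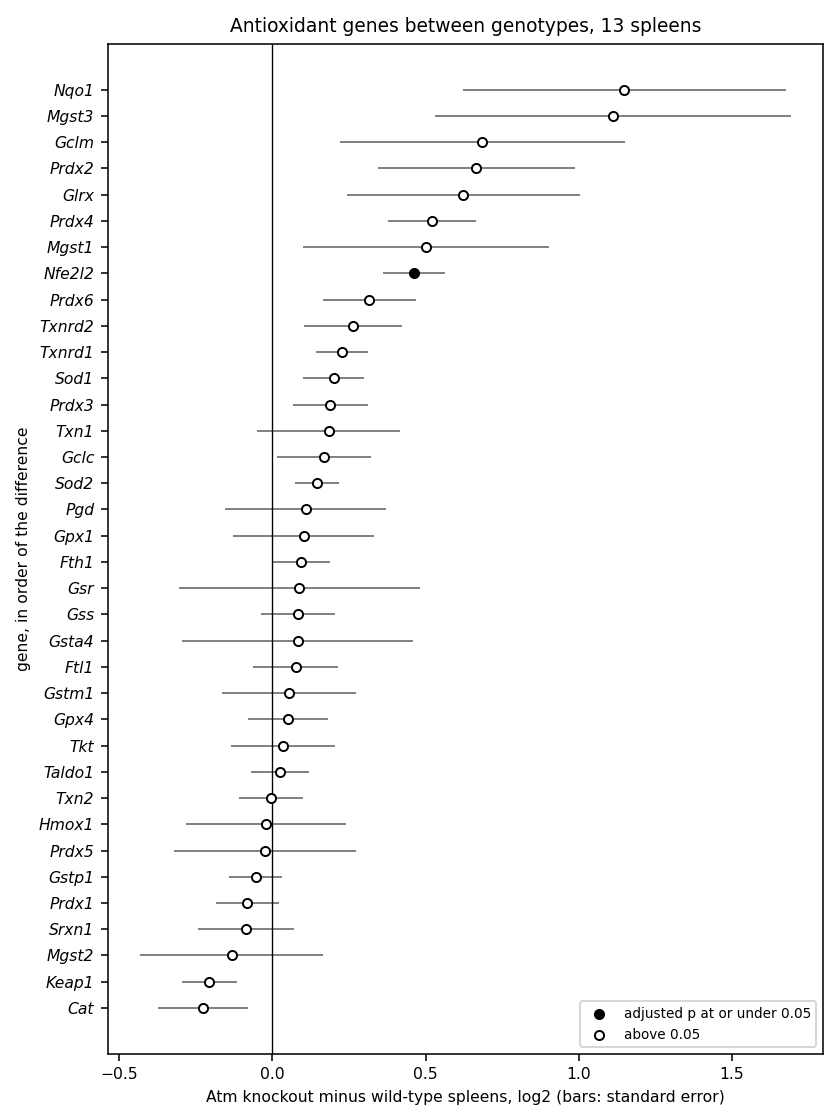
Difference in log2 level between 6 Atm knockout and 7 Atm wild-type spleens for 36 of the genes, in order of size, with standard errors from the limma fit with sex as a term, in which the 6 knockout and 3 wild-type females set the difference; the filled point has an adjusted p at or under 0.05. Nfe2l2 at 0.46 is the filled point, and larger differences such as Nqo1 at 1.15 have wide errors.

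Prdx4 was at 2.06 to 2.44 in knockout and at 1.44 to 2.03 in wild-type spleens, also without overlap, with a difference of 0.52 ± 0.14 (adjusted p = 0.0666). The call was reached without wild-type spleen 2 (adjusted p = 0.0301), a male, which changes the spread and not the difference. Sod2 did not overlap between genotypes either, at 4.51 to 4.66 in knockout and 4.22 to 4.47 in wild-type spleens. Its difference was 0.15 ± 0.07 (limma adjusted p = 0.268). The share of all genes without overlap, called or not, was not computed. Nqo1 differed by 1.15 ± 0.53 (adjusted p = 0.244), Mgst3 by 1.11 ± 0.58 (0.301), Gclm by 0.69 ± 0.47 (0.433), Prdx2 by 0.67 ± 0.32 (0.262) and Keap1 by -0.21 ± 0.09 (0.222), of which Gclm and Keap1 turned sign with normexp (-0.30 and 0.02). Leaving out the sex term called 5 members higher (Nfe2l2, Txnrd1, Prdx4, Prdx6 and Sod2) and 1 lower (Keap1). In the same fit 738 of all genes were called higher and 693 lower, beside 228 and 297 with the term. The sex term passed for 0 of the 37 genes (smallest limma adjusted p = 0.46, with 0 higher and 2 lower in males at an unadjusted p under 0.05). Among the other pathway lists, few genes were called between genotypes: Maff rose by 1.21 ± 0.15 (adjusted p = 0.00218), and the remaining calls, named after their values were seen, were Chac1, which degrades glutathione (1.74 ± 0.32), and Mthfd1 (0.68 ± 0.16), higher, and Gpx8 (-1.23 ± 0.21), Oplah (-0.67 ± 0.14) and the iron sensor Ireb2 (-0.41 ± 0.10), lower.

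Among the spleens, some of the 37 genes moved with markers of red cells and neutrophils. This relation was computed after the data had been seen, for 36 genes and 2 marker sums over the 13 spleens, 72 relations in all, of which 19 passed after Benjamini-Hochberg adjustment (two-sided permutation test of Pearson's r with 100000 resamples). By Spearman's rho 13 of these passed as well, and those of Nqo1 with either sum and of Gsr, Prdx5, Mgst2 and Gstm1 with the neutrophil sum did not. The relation was not computed for all genes tested, so these counts have no background share beside them. With the erythroid sum the genes were Gpx1 (r = 0.85, rho = 0.84, adjusted p = 0.00432 and 0.022), Gclm (r = 0.82, rho = 0.71), Mgst3 (r = 0.78, rho = 0.75), Prdx2 (r = 0.75, rho = 0.78) and Nqo1 (r = 0.66, rho = 0.62). Within genotypes r was 0.88 and 0.79 for Gpx1, 0.87 and 0.89 for Gclm, 0.94 and 0.86 for Mgst3, 0.91 and 0.85 for Prdx2, and 0.77 and 0.89 for Nqo1, in knockout and wild-type spleens. Knockout spleen 6 and wild-type spleen 6, the lowest of their groups in erythroid markers, were also the lowest of their groups for Gpx1, Mgst3 and Prdx2, and both were the only spleens on slide 5. They are the 2 farthest from the median of the marker sum, and without them r was 0.76, 0.72, 0.63, 0.71 and 0.58.

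With the neutrophil sum 14 genes passed, among them Tkt and Pgd of the pentose phosphate pathway. Glrx had r = 0.84 and rho = 0.85, Tkt r = 0.84 and rho = 0.80, Pgd r = 0.83 and rho = 0.81, Prdx5 r = 0.81 and rho = 0.62, and Mgst1 r = 0.80 and rho = 0.76. Within knockout and wild-type spleens r was 0.79 and 0.85 for Glrx, 0.97 and 0.78 for Tkt, and 0.83 and 0.89 for Pgd. Without the 2 farthest spleens r was 0.82 for Glrx, 0.82 for Tkt and 0.82 for Pgd. Those that passed also included Txn1, Gstm1, Mgst2, Srxn1, Gsr, Prdx6, Nqo1 and Gsta4, with r of 0.67 to 0.79. Gsta4 was not well above background in knockout spleen 6 and wild-type spleens 1 and 5, and its r was 0.48 without the 2 farthest spleens. For Prdx6 only the brightest of its differing probes was used. Wild-type spleen 2, the highest in neutrophil markers, had the highest level of Glrx (3.05), Pgd (3.91), Tkt (6.30), Prdx5 (4.48) and Mgst1 (3.70) of all spleens. The marker sums of the genotypes overlapped. Nfe2l2 passed with neither sum (r = 0.04 with the erythroid and 0.48 with the neutrophil sum). No relation was computed with the T and NK cell sum. Slides held too few spleens for values within them, and the part of any of these cells in the levels, that of Nfe2l2 included, was not tested.

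**Figure D5:**
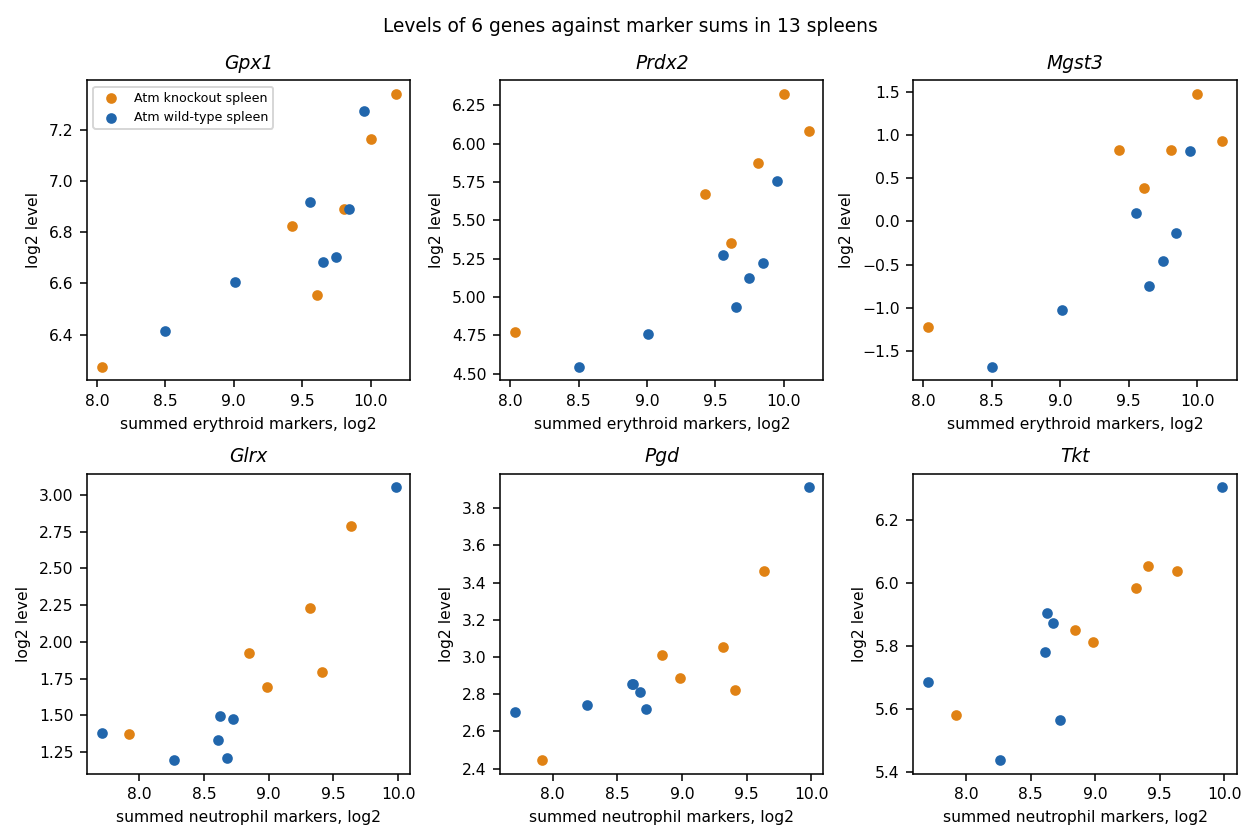
Log2 level of 6 genes against the summed log2 level of erythroid markers (top: Gpx1, Prdx2, Mgst3) or neutrophil markers (bottom: Glrx, Pgd, Tkt) in the 13 spleens, Atm knockout in orange and wild-type in blue. Levels go up with the marker sum in both genotypes, with r from 0.75 to 0.85, and wild-type spleen 2 is the point farthest to the right in the lower panels.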

How the data were processed

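RNA of 22 mouse samples was read on 23 arrays. Per the file headers, each deposited file gives the intensity of its spots from Agilent Feature Extraction 10.7.1.1, after background subtraction. The deposited value table holds log2 values, used as an alternative: each column had a correlation of at least 0.999613 with the log2 processed signal, and all 41174 probes had a median of 0, so it is the same signal scaled and centred per probe. Control spots (1639 an array) and 1556 flagged spots over all arrays were left out, spots of a probe were averaged, and log2 values were taken minus the 75th percentile of each array.

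Symbols came from RefSeq accessions joined to RefSeq genes of GRCm38.p6 (26690 of 41174 probes matched, 18217 genes). A gene was tested if a probe was well above background in at least 6 of 22 samples, and the probe with the highest mean represented it (11 of the 37 genes had several). The models were limma's (3.58.1, R 4.3.3), with p-values adjusted by Benjamini-Hochberg over 13743 genes at 0.05, in a fit of 3 groups for the lines and a fit of the 13 spleens with genotype and sex for the genotypes. The fits were tested on simulated data. The repeat arrays of line 8 were averaged because the title of 1 marks it as a repeat, while the design text counts 10 lines. Spleens were separate animals.

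The 37 genes, the other lists and the tests were chosen with earlier results of these data known. All members are described but 1, which is counted among the 37 and not reported here by itself. Of the other lists, at most 2 called genes a direction are named, by their difference between lines and knockout spleens, with the fixed genes Atm, Cd3e, Bach1, Slc7a11, Txnip, Cybb and Tfrc. Alternatives were median centring, quantile normalisation, normexp (offset 50, on the median spot signal, since the files hold no mean signal), the value table, other probe filters and rules, slide as a fixed term or random block, single arrays of line 8, no sex term, female spleens, a fit of all groups, and each sample left out. The correlation of pairs used 7 genes, since Slc7a11 was not measurable in the lines. Marker sums are log2 of the added linear levels of the listed markers. Lists of T and NK cell, megakaryocyte and platelet, and stromal and endothelial markers were checked too: in the lines their sums were 1.32 to 4.91, -3.32 to -0.84 and -1.46 to -0.04, and in the spleens 5.89 to 6.84, 2.29 to 3.02 and 0.99 to 1.55. Summed B cell markers were 9.84 to 10.31 in the lines and 9.52 to 10.17 in the spleens, and proliferation markers 7.31 to 8.82 and 5.71 to 6.97. Python 3.11.15, numpy 2.4.6, pandas 2.3.3, scipy 1.17.1 and matplotlib 3.10.9 were used for the rest. Precision is limited by the number of arrays.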

Additional observations from a re-analysis of the deposited data

Results flagged for a closer look

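Of the genes, 36 were checked in each of the 3 groups for a sample that stood far from the rest (Dixon's criterion), 108 groups in all, of which chance alone would pick about 5%. In 6 of them a sample stood apart, which is near that share, so their number is no result. Wild-type spleen 2 was the highest of its group for Glrx at 3.05 (the other wild-type spleens lay at 1.19 to 1.49), for Mgst1 at 3.70 (1.44 to 2.17), for Prdx5 at 4.48 (2.94 to 3.55) and for Pgd at 3.91 (2.71 to 2.86). Summed neutrophil markers were 9.98 in this spleen and 7.71 to 8.73 in the other wild-type spleens, and their part in these levels was not tested. Line 9 was the lowest line for Mgst2 at 3.63, with the other lines at 5.40 to 6.62. Line 2 was the highest line for Sod2 at 5.95, with the others at 4.87 to 5.41.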

How the results depend on the processing

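No paired analysis was possible because the groups are of different animals and the labels give no shared replicate numbers. The members called lower in lines than in knockout spleens numbered 11, and 6 with median centring, which raises all differences. With it the members called higher went from 15 to 22 against knockout spleens and from 16 to 24 against wild-type spleens. It turned the sign against knockout spleens of Txnrd2 (0.051), Prdx5 (0.59), Prdx6 (0.41), Taldo1 (0.19), Fth1 (0.56) and Ftl1 (0.43), and against wild-type spleens of Txnrd2 (0.40), Prdx5 (0.52), Taldo1 (0.21), Fth1 (0.59) and Ftl1 (0.44). Of members called in neither setting it turned Gclm (0.59), Glrx (0.046) and Srxn1 (0.61) against knockout spleens and Glrx (0.41), Gsta4 (0.074), Mgst3 (0.23) and Srxn1 (0.64) against wild-type spleens. Of the 11 and 12 members not called against knockout and wild-type spleens, 5 and 5 turned sign with quantile normalisation and 5 and 2 with normexp. Keap1 turned to -0.15 against wild-type spleens with quantile normalisation; the cause was not tested. With 1 sample left out, members called higher and lower numbered 15 and 11 to 13 against knockout spleens, and 15 to 16 and 9 against wild-type spleens. Between genotypes the 1 member called higher became 0 with median centring, normexp, slide as a fixed term or 1 fit of all groups, 5 (and 1 lower) with no sex term, 2 without the 2 spleens highest in neutrophil markers (added after seeing the data, and of these wild-type spleen 2, a male, cannot move the difference), and 0 to 2 with 1 spleen left out.

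Of all genes, 5710 and 3971 were called higher and lower against knockout spleens (8691 and 2509 with median centring, 2562 lower with normexp) and 5550 and 4245 against wild-type spleens (8546 and 2636 with median centring). Between genotypes 228 and 297 became 2 and 1 with normexp, 146 and 108 with slide as a fixed term, 361 and 462 with slide as a random block, 738 and 693 with no sex term and 130 and 119 in 1 fit of all groups, with 177 lower under median centring, 176 lower among females, and 74 to 354 higher and 48 to 425 lower with 1 spleen left out. Signals near background limit Nqo1, Gsta4 and Mgst1 in the lines.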
